A study of Mus musculus with 19 samples.

Results

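Late neutrophil and neutrophil-like monocyte transcripts are described here as 8 genes, Retnlg, G0s2, Hdc, Asprv1, Msrb1, Mrgpra2b, Chil3 and Adam8, chosen by name from the 33559 rows of a bulk RNA-seq table. Each of the 8 symbols occurred in 1 row. The table held 5 libraries of bone marrow monocytes labelled wild type, 3 of them labelled GCSF for treatment (G-CSF replicates 1 to 3) and 2 labelled with no treatment (control replicates 1 and 2). G-CSF is the cytokine that drives granulocyte production in the marrow. The labels used here do not give its dose, its route, the length of treatment, the age of the mice, or whether the replicates came from separate animals, so p-values measure only the spread between these 5 samples. The other 14 of 19 samples, from skin, were not analysed here.

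Neutrophils mature in the marrow in steps, and each step switches on its own set of genes: primary granule proteases first, then secondary granule proteins, and last the products of nearly mature cells that are ready to leave for the blood. In mice, Retnlg, Asprv1, Hdc, G0s2, Msrb1, Mrgpra2b and Adam8 are known as transcripts of such late cells. Chil3 is made in quantity by neutrophil precursors and is also known as a mark of neutrophil-like monocytes, a branch of classical monocytes that shares granule genes with neutrophils.

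None of the 8 transcripts passed the test across all genes, limma on log2(FPKM + 1) with a Benjamini-Hochberg adjusted p under 0.05. FPKM, as deposited, is a count of fragments scaled to gene length and library depth. All 8 were among the 16791 genes tested, of which 1 gene, or 0.00596%, was called higher and 0% lower with G-CSF. The called gene was Socs3, which encodes a feedback inhibitor of cytokine receptor signalling and is named because it was the one called (log2 fold change 4.34 ± 0.24, SE; adjusted p = 0.0454 by limma). At an unadjusted p under 0.05, 1 member was higher (Asprv1) and 1 lower (G0s2), where 7.90% of all genes were higher and 4.76% lower. The voom fit on recovered reads called 0 of the 8 as well, where 8 of all 14694 genes tested were called higher and 2 lower. The fit of protein-coding genes alone also called 0 of the 8, where 0.285% of genes were called higher and 0.0285% lower. Asprv1 and G0s2 were the members whose libraries did not overlap between the groups. For all genes tested, 20.0% lay higher in every G-CSF library than in both controls and 11.9% lay lower in every one. The median log2 fold change of the 8 was 0.17, beside 0.08 over all genes tested, with 5 positive and 3 negative, and 56.3% of all genes were positive. In bulk RNA, fewer cells of a type and less RNA per cell cannot be told apart.

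**Figure D1:**
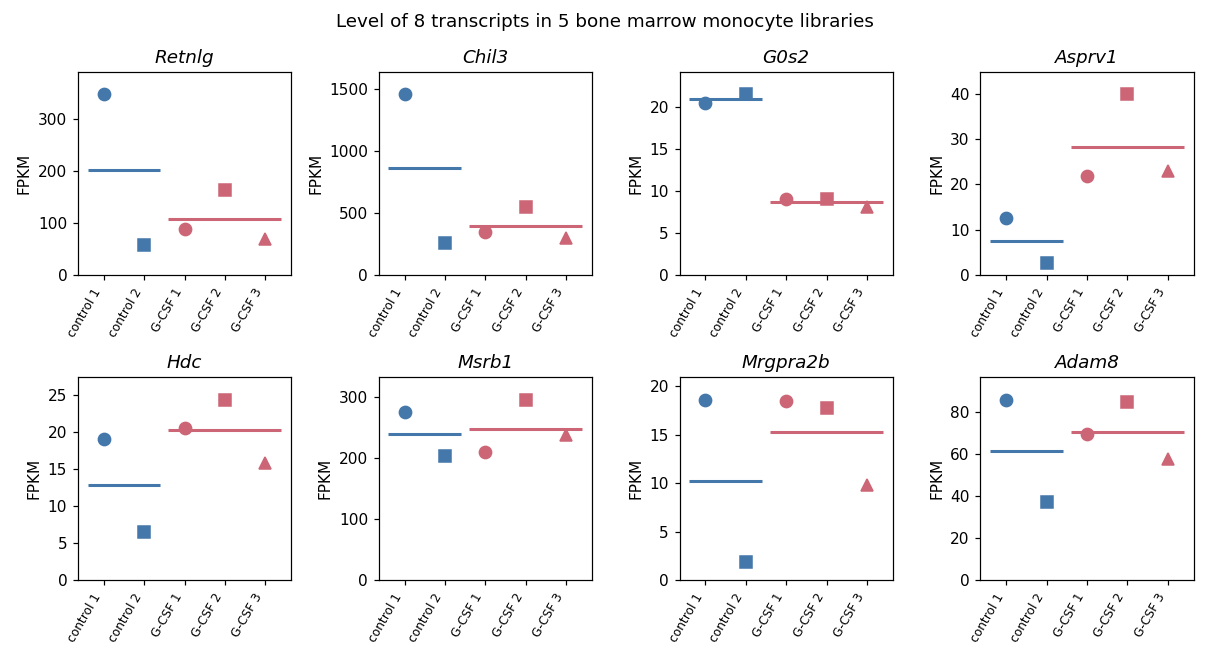
Level of each transcript in FPKM (y axis, from 0, a separate scale per panel) in the 2 control libraries (blue) and the 3 G-CSF libraries (red), with a line at each group's mean. G0s2 lies lower and Asprv1 higher in every G-CSF library than in both controls, while the groups of the other 6 overlap.

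The main split among the 8 lay between the controls. Control replicate 1 exceeded control replicate 2 in 7 of 8 members, against 56.0% of all genes tested, and was at least 2 times as high in 6 of 8, against 27.4%. The median ratio of control replicate 1 to control replicate 2 was 3.87 over the members and 1.10 over all genes tested. Control replicate 2 was the lowest of the 5 libraries for 7 of the 8, and the highest for the remaining one, G0s2. The share of all genes with control replicate 2 lowest was not counted, so these counts have no comparison. Within the G-CSF group, replicate 2 was the highest library for 7 of 8 members, against 39.6% of all genes, and replicate 3 the lowest for 6 of 8, against 29.0%. Markers of mature neutrophils other than the 8 moved with this split. Of 35 such genes, all in the table and tested, 33 were higher in control replicate 1 than in control replicate 2. Their summed level was 6440 FPKM in control replicate 1, 1050 FPKM in control replicate 2 and 4057 to 5877 FPKM with G-CSF. S100a9 and S100a8 made up much of it, at 2514 and 2177 FPKM in control replicate 1. In control replicate 2 they measured 301 and 272 FPKM, and with G-CSF 1257 to 2068 and 768 to 1303 FPKM. The sum is therefore not a measure of the list as a whole. None of the 35 was at 0 in all libraries, and the part of neutrophil content in the results for the 8 members was not tested. Other lists split between the controls as well. Control replicate 1 was the higher for 11 of 14 monocyte genes, with sums of 4354 and 1893 FPKM, and for 17 of 18 neutrophil-like monocyte genes, with sums of 14902 and 3489 FPKM. Lyz2 alone supplied most of the monocyte sums, at 3509 and 1232 FPKM. Not all monocyte genes split as widely, and Csf1r measured 111 and 99.0 FPKM. The 3 tested erythroid genes were also higher in control replicate 1, where their list summed to 436 FPKM against 109 FPKM. The macrophage list ran the opposite way in sum, at 463 and 1474 FPKM, much of it from its complement gene C1qb, at 232 and 1045 FPKM. Control replicate 1 was nonetheless the higher for 3 of its 9 tested genes, among them Adgre1, at 70.6 and 33.7 FPKM. The part of these cell types was not tested either. The defining neutrophil antigen Ly6g measured 54.9 and 15.6 FPKM in the controls and 9.88, 25.0 and 12.2 FPKM with G-CSF, so the libraries labelled as monocytes held neutrophil transcripts. Their monocyte genes were present too: Csf1r, the macrophage colony-stimulating factor receptor, measured 99.0 to 255 FPKM, and Ly6c2, the antigen of classical monocytes, measured 67.0 and 24.1 FPKM in the controls and 86.8 to 107 FPKM with G-CSF. Recovered reads per library, a lower bound of depth, ranged from 2923773 in control replicate 2 to 6988609.

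**Figure D2:**
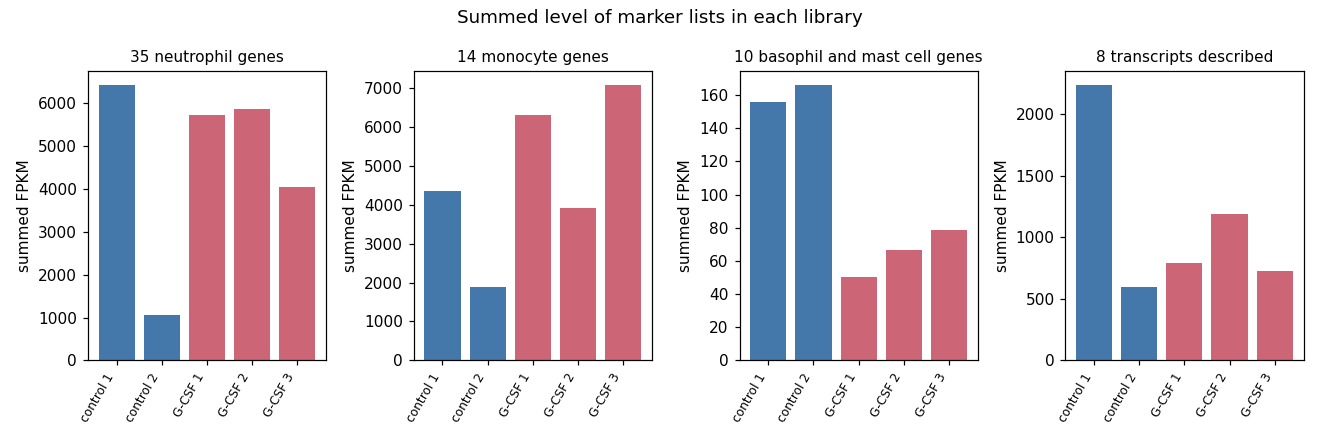
Summed FPKM (y axis, from 0) in each of the 5 libraries for 35 mature neutrophil genes, 14 monocyte genes, 10 basophil and mast cell genes, and the 8 transcripts described, with controls in blue and G-CSF libraries in red. The neutrophil sum is lowest in control replicate 2, at 1050 FPKM, and the sum over the 8 transcripts is highest in control replicate 1, at 2239 FPKM. S100a8 and S100a9 make up much of the neutrophil sum, Lyz2 much of the monocyte sum and Prss34 much of the basophil and mast cell sum. Chil3 makes up much of the sum over the 8 transcripts, at 1459 FPKM in control replicate 1.

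The secreted proteins come first. Retnlg encodes resistin-like gamma, a small cysteine-rich protein released by myeloid cells. Retnlg measured 348 and 57.4 FPKM in control replicates 1 and 2, and 89.6, 164 and 70.3 FPKM in G-CSF replicates 1, 2 and 3. All 3 G-CSF libraries lay between the controls. Retnlg had a log2 fold change of -0.48 ± 0.82 (SE), with a 95% interval from -2.50 to 1.54 and an adjusted p by limma of 0.809. Leaving out control replicate 2 gave -1.77 and leaving out control replicate 1 gave 0.81, so its direction rests on the control that is kept. Chil3 encodes Ym1, a chitinase-like lectin without chitinase activity that forms crystals in mouse tissue. It was the most abundant of the 8, at 1459 and 263 FPKM in the controls and 348, 552 and 302 FPKM with G-CSF. Again the G-CSF libraries lay between the controls. The log2 fold change of Chil3 was -0.68 ± 0.80 (SE; 95% interval -2.65 to 1.29; adjusted p = 0.726 by limma), -1.91 with control replicate 2 left out and 0.55 with control replicate 1 left out.

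Chil3 and Retnlg kept nearly the same proportion in every library. The ratio of their levels was 4.19 and 4.59 in the controls and 3.88, 3.37 and 4.30 with G-CSF, a spread of 1.36 times while Retnlg itself spread 6.06 times between the controls. Likeness was measured as the root mean square difference of centred log2 profiles over the 5 libraries, among 3443 protein-coding genes with a mean of at least 10 FPKM. By this measure each was the other's nearest gene, at 0.15. Next came Padi4, which encodes a histone-citrullinating enzyme of neutrophils, for Retnlg at 0.31, and Syne1 for Chil3 at 0.22. Retnlg is found on chromosome 16, from 48872621 to 48874496 on the plus strand of GRCm38, and Chil3 on chromosome 3, from 106147554 to 106167564 (minus strand).

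**Figure D3:**
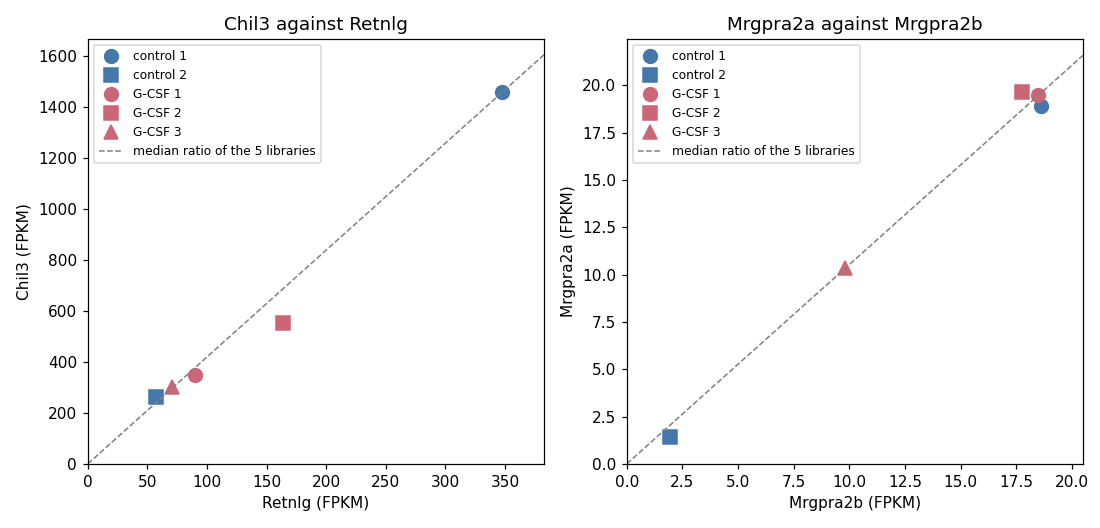
Level of Chil3 against Retnlg (left) and of Mrgpra2a against Mrgpra2b (right), both axes in FPKM from 0, with 1 point per library (controls blue, G-CSF red). The dashed line is the median ratio of the 5 libraries; the Chil3 to Retnlg ratio stays between 3.37 and 4.59.

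Because these levels moved together, their promoter windows are shown, from 250 bases before the start site to 50 after it, as RefSeq gives them on GRCm38.p6. Matches on either strand to 5 motifs are in capitals. The letters searched were TTNNGNAA for C/EBP factors, TTCNNNGAA for STAT factors, GAGGAA for ETS factors such as PU.1, TATAAA for the TATA box and AGATAA for GATA factors. The Retnlg window is chr16:48872358-48872657, plus strand, and the Chil3 window is chr3:106167515-106167814, minus strand.
Retnlg: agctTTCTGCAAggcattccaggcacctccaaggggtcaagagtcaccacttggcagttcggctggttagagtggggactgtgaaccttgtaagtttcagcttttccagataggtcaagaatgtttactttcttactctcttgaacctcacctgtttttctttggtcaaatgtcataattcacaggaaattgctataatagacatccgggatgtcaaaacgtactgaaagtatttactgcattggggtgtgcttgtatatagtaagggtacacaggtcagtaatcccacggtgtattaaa
Chil3: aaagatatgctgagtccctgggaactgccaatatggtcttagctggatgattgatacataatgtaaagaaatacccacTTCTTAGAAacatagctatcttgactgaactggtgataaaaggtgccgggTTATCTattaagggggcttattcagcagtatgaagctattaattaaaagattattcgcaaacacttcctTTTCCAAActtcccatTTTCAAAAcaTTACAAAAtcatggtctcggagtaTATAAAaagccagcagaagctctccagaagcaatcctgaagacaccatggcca
Retnlg held 1 match, to the C/EBP letters. Chil3 held 3 C/EBP matches, 1 STAT match, 1 GATA match and 1 TATA match, the last starting 3 bases before the annotated start site, and none overlapped another. Of 32851 windows in the RefSeq table, 40.7% held the C/EBP letters, 8.3% the STAT letters, 28.3% the ETS letters, 13.6% the TATA letters and 11.2% the GATA letters. A match is a description of letters and not a bound site.

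The relatives of both genes had values of their own. Of the 3 other resistin family genes, only Retnla passed the filter on low values, which asked for 1 FPKM or more in 2 libraries or more. Retnla, a product of alternatively activated macrophages, measured 14.2 and 89.6 FPKM in the controls and 8.54, 2.75 and 5.58 FPKM with G-CSF. The groups did not overlap, and the log2 fold change of -2.59 ± 0.81 (SE) did not pass (adjusted p = 0.334 by limma). Unlike Retnlg, Retnla was highest in control replicate 2. Among 6 other chitinase family genes, 4 were tested and 0 were called, with a median log2 fold change of -0.18. The closest copy of Chil3, Chil4, measured 4.01 and 0.82 FPKM in the controls and 1.07, 2.12 and 1.04 FPKM with G-CSF. Chil4 shared 16.9% of the 50-base windows of Chil3 transcripts, so reads could be shared between the 2 rows. Chil1, the chitinase-like gene with the highest level after Chil3, measured 66.2 and 11.8 FPKM in the controls and 48.7, 61.9 and 46.2 FPKM with G-CSF (log2 fold change 0.85 ± 0.70, SE; adjusted p = 0.608 by limma).

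G0s2 was the one transcript of the 8 that was lower in every G-CSF library. It encodes an inhibitor of adipose triglyceride lipase, the enzyme that starts the breakdown of stored fat. G0s2 measured 20.5 and 21.5 FPKM in the controls and 9.08, 9.09 and 8.13 FPKM with G-CSF. The controls were nearly equal although they differed for most of the other members, and the G-CSF libraries spread by 1.12 times. The group means were 21.0 ± 0.727 FPKM (SD, n = 2) and 8.77 ± 0.550 FPKM (SD, n = 3), a ratio of 2.40 of control to G-CSF. The log2 fold change was -1.17 ± 0.22 (SE), with a 95% interval from -1.73 to -0.62, an unadjusted p of 0.00216 and an adjusted p by limma of 0.226. Of all genes tested, 2.91% had a lower log2 fold change. The value was -1.21 without control replicate 1, where it was called (adjusted p = 0.0155), and -1.14 without control replicate 2 (adjusted p = 0.151). Without control replicate 1, 12.4% of all genes were called lower and 17.7% higher.

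G0s2 rested on few reads: 166 and 65 in the controls and 68, 77 and 53 with G-CSF. The exact 95% Poisson interval was 16.6 to 27.4 FPKM in control replicate 2 and 7.17 to 11.4 FPKM in G-CSF replicate 2, which covers counting error only. The genes most like G0s2 over the 5 libraries were the integrin gene Itgb3, at a root mean square difference of 0.13, and the lymphoid and dendritic cell factor gene Spib, at 0.16. G0s2 is found on chromosome 1, from 193272161 to 193273217 (minus strand). Its promoter window is chr1:193273139-193273438, minus strand, and held no match to any of the 5 motifs. It is shown because G0s2 and Asprv1 went opposite ways without overlap.
G0s2: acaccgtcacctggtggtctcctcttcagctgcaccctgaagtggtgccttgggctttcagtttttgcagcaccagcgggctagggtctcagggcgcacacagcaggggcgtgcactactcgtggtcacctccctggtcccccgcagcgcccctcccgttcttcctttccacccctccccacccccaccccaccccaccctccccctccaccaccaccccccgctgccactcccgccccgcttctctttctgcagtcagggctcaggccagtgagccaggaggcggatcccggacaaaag
The window was rich in G and C, at 66.7%, against a median of 52.7% over all windows in the table.

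Among the 10 other genes of triglyceride storage and breakdown, all tested, 0 were called and the median log2 fold change was 0.13. Mgll, the monoglyceride lipase gene, measured 10.5 and 23.9 FPKM in the controls and 3.35, 2.31 and 5.42 FPKM with G-CSF, without overlap (log2 fold change -1.91 ± 0.45, SE; adjusted p = 0.258 by limma). Hilpda, which encodes another inhibitor of the same lipase as G0s2, measured 1.56 and 1.57 FPKM in the controls and 5.38, 2.80 and 3.51 FPKM with G-CSF (log2 fold change 0.90 ± 0.29, SE; adjusted p = 0.342 by limma). The 2 lipase inhibitors thus had values on opposite sides, neither past the threshold. Hilpda rested on fewer reads still than G0s2, at 16 and 6 in the controls and 51, 30 and 29 with G-CSF, so its levels are imprecise. The lipase gene Pnpla2, named after its values were seen, measured 22.8 and 41.4 FPKM in the controls and 24.8, 28.2 and 28.1 FPKM with G-CSF. Plin2, the lipid droplet coat gene and the most abundant of this list, overlapped between groups (log2 fold change 0.06 ± 0.41, SE; adjusted p = 0.951 by limma).

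Asprv1 was the one transcript of the 8 that was higher in every G-CSF library. It encodes a retroviral-like aspartic protease, first known from the epidermis, where it cleaves profilaggrin. Asprv1 measured 12.7 and 2.61 FPKM in the controls and 21.8, 39.8 and 22.9 FPKM with G-CSF. Even the lowest G-CSF library lay above the higher control, although the controls differed by 4.85 times. The group means were 7.63 ± 7.10 FPKM (SD, n = 2) and 28.2 ± 10.1 FPKM (SD, n = 3), a ratio of 3.69 of G-CSF to control. The log2 fold change was 2.002 ± 0.61 (SE), with a 95% interval from 0.49 to 3.51, an unadjusted p of 0.0179 and an adjusted p by limma of 0.325. It stood at the 99.2 percentile of the log2 fold changes of all genes tested. Without control replicate 1 the value was 2.96, and without control replicate 2 it was 1.04, each from a fit with only the other control kept. Control replicate 2 held 14 reads of Asprv1, for an exact 95% Poisson interval of 1.43 to 4.38 FPKM, and the other libraries held 182 to 599.

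The profile of Asprv1 was closest to that of Mpo, the myeloperoxidase gene of primary granules, at 0.19, and next to that of Slfn4, a Schlafen family gene, at 0.21. Mpo measured 65.7 and 20.9 FPKM in the controls and 132, 174 and 141 FPKM with G-CSF. Asprv1 is found on chromosome 6, from 86628164 to 86629710 on the plus strand. Its window, chr6:86627924-86628223, plus strand, held 1 match, to the ETS letters, starting at the third transcribed base.
Asprv1: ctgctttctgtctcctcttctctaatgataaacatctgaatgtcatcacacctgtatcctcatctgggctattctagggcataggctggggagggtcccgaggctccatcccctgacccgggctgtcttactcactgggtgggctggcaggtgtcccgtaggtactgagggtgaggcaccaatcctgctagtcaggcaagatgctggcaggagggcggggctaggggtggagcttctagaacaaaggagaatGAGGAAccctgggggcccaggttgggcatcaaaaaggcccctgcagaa
Filaggrin itself, Flg, was listed at 0 in 4 libraries and at 0.57 FPKM in control replicate 2. Of the 8 other genes in the list of aspartic proteases and filaggrin, 4 were tested and 0 were called. Napsa, which encodes napsin A, measured 22.6 and 8.89 FPKM in the controls and 32.6, 35.4 and 31.0 FPKM with G-CSF (log2 fold change 1.15 ± 0.41, SE; adjusted p = 0.366 by limma). Ctsd, the lysosomal cathepsin D gene and the most abundant of them, ranged from 744 to 4747 FPKM between the controls.

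Hdc encodes histidine decarboxylase, the enzyme that makes histamine. Hdc measured 19.1 and 6.59 FPKM in the controls and 20.6, 24.4 and 15.9 FPKM with G-CSF. Control replicate 1 lay inside the range of the G-CSF libraries, and control replicate 2 lay below them all. For Hdc, the log2 fold change was 0.77 ± 0.46 (SE; 95% interval -0.38 to 1.91; adjusted p = 0.506 by limma). It was 1.47 and called without control replicate 1 (adjusted p = 0.0245), and 0.06 without control replicate 2. Basophils and mast cells are the best-known sources of Hdc. Of the 10 genes in their list 5 were tested and 0 were called, with 2 lower at an unadjusted p under 0.05. All 5 had a negative log2 fold change, where 56.3% of all genes tested were positive. The summed level of the list was 156 to 166 FPKM in the controls and 50.4 to 78.6 FPKM with G-CSF. Prss34 made up most of that sum, at 117 and 142 FPKM in the controls and 39.6 to 62.2 FPKM with G-CSF. Mcpt8, a basophil protease gene, measured 22.0 and 13.01 FPKM in the controls and 4.90, 7.63 and 8.71 FPKM with G-CSF (log2 fold change -1.18 ± 0.35, SE; adjusted p = 0.318 by limma). Cpa3, the mast cell carboxypeptidase gene, measured 0.95 to 6.31 FPKM, and the mast cell protease genes Tpsb2 and Cma1 were at 0 in 4 libraries. Hdc per unit of Mcpt8 was 0.87 and 0.51 in the controls and 4.20, 3.20 and 1.83 with G-CSF. Mcpt8 itself was lower in every G-CSF library, which raises a ratio to it. The share of all genes whose ratio to Mcpt8 rose in this way was not counted, so the ratio has no comparison. The part of basophils in the level of Hdc was not tested. The profiles closest to that of Hdc were those of Snap23 at 0.05 and Gyg at 0.07.

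Other genes of histamine handling were low. Of 8, 3 were tested and 0 were called. Hrh2, the H2 receptor gene, measured 4.87 and 0.68 FPKM in the controls and 4.14, 9.62 and 3.42 FPKM with G-CSF (log2 fold change 0.99 ± 0.64, SE; adjusted p = 0.526 by limma). Hnmt, which encodes the enzyme that methylates histamine, measured 2.31 and 0.49 FPKM in the controls and 3.55, 2.73 and 2.19 FPKM with G-CSF (adjusted p = 0.460 by limma). Slc18a2, the vesicular monoamine transporter gene, was lower in every G-CSF library, at 1.80 to 2.24 FPKM against 3.48 and 4.28 FPKM (log2 fold change -0.71 ± 0.23, SE; adjusted p = 0.339 by limma).

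Msrb1 varied least after G0s2 between the controls and had the log2 fold change closest to 0. It encodes a selenoprotein that reduces oxidised methionine. Msrb1 measured 275 and 203 FPKM in the controls and 210, 295 and 238 FPKM with G-CSF. The groups overlapped, and the log2 fold change was 0.05 ± 0.38 (SE; adjusted p = 0.953 by limma). Its 95% interval, from -0.87 to 0.98, leaves room for a change of nearly 1 on the log2 scale either way. Its sign turned without control replicate 2 (-0.17), without G-CSF replicate 2 (-0.08) and with quantile normalization (-0.15). Mfn2 and Pi4kb had the nearest profiles, at 0.04 and 0.05. Of 13 other genes of methionine repair and selenoprotein synthesis tested, 0 were called and 10 were positive, with a median of 0.25. Gpx1, the selenoprotein that removes hydrogen peroxide, measured 148 and 151 FPKM in the controls and 369, 290 and 375 FPKM with G-CSF (log2 fold change 1.19 ± 0.35, SE; adjusted p = 0.318 by limma). Txnrd1, the thioredoxin reductase gene, had 0.95 ± 0.31 (SE; adjusted p = 0.342 by limma), also without overlap. Unlike these, Msrb1 had its lowest and its highest G-CSF library on either side of control replicate 1.

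Adam8 encodes a membrane-anchored metalloproteinase of leukocytes that cuts adhesion molecules from the cell surface. Adam8 measured 86.0 and 37.5 FPKM in the controls and 69.7, 84.9 and 57.8 FPKM with G-CSF. All 3 G-CSF libraries lay between the controls. For Adam8, the log2 fold change was 0.29 ± 0.44 (SE; 95% interval -0.78 to 1.37; adjusted p = 0.781 by limma), -0.29 with control replicate 2 left out and 0.88 with control replicate 1 left out. The nearest profiles were those of the ribosomal protein gene Rpl37a and of the actin cross-linker gene Flna, both at 0.07. Adam17 and Adam9 lay higher in every G-CSF library than in both controls. Adam17, the sheddase of TNF, measured 12.5 and 9.23 FPKM in the controls and 32.8, 22.1 and 29.2 FPKM with G-CSF (log2 fold change 1.29 ± 0.29, SE; adjusted p = 0.258 by limma). Adam9 measured 10.8 and 15.8 FPKM in the controls and 37.8, 24.1 and 37.2 FPKM with G-CSF (log2 fold change 1.24 ± 0.33, SE; adjusted p = 0.292 by limma). Of the 9 other genes of ADAM proteases and their regulators that were tested, 0 were called and 7 were positive, with a median of 0.38. Adam8 nonetheless had the highest level of the family in all 5 libraries, ahead of Adam15 at 17.5 to 40.5 FPKM. Its exons share 46 bases, or 0.992%, with the antisense transcript Gm16201, and strand handling is not stated, so reads there could belong to either.

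Mrgpra2b encodes a G protein-coupled receptor that, with its copy Mrgpra2a, lets mouse neutrophils respond to defensin peptides. Mrgpra2b measured 18.6 and 1.95 FPKM in the controls and 18.5, 17.7 and 9.82 FPKM with G-CSF. Control replicate 1 was the highest library and control replicate 2 the lowest, 9.57 times apart, the widest gap between controls among the 8. Its log2 fold change was 1.06 ± 0.80 (SE; 95% interval -0.93 to 3.04; adjusted p = 0.583 by limma). It was 2.42 and called without control replicate 1 (adjusted p = 0.0183), and -0.31 without control replicate 2. Control replicate 2 held 9 reads, for an exact 95% Poisson interval of 0.89 to 3.69 FPKM, so the value against that library alone is imprecise. Mrgpra2a was its nearest profile at 0.15, at 18.9 and 1.40 FPKM in the controls and 19.5, 19.7 and 10.3 FPKM with G-CSF, and S100a9, a calprotectin subunit gene, came next at 0.16.

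The 2 receptor rows are not independent measurements. Of the 50-base windows of Mrgpra2b transcripts, 81.2% also occurred in Mrgpra2a transcripts, so reads could be shared between the rows, and the assignment of such reads by the authors is not given in the sources used here. Both copies had the same promoter letters at all 300 of 300 bases, at chr7:47489533-47489832 for Mrgpra2b and chr7:47452115-47452414 for Mrgpra2a, both (minus strand). The shared window is shown once because it makes the duplication plain.
Mrgpra2b: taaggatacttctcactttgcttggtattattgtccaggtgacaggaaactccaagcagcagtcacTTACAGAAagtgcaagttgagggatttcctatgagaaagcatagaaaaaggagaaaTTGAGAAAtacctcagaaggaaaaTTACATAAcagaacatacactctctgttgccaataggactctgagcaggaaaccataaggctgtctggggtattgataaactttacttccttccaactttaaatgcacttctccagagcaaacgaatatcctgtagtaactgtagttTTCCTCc
It held 3 matches to the C/EBP letters and 1 to the ETS letters, none overlapping. Retnlg, G0s2, Asprv1, Msrb1 and Adam8 shared 0 windows with another gene, Hdc 0.141% and Chil3 26.9%.

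**Figure D4:**
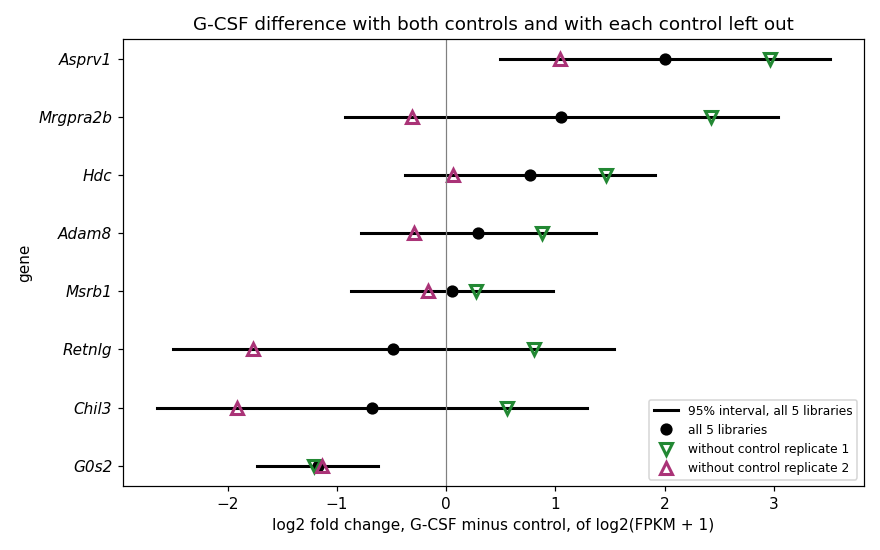
Log2 fold change of log2(FPKM + 1), G-CSF minus control (x axis), for each transcript (y axis), with the 95% limma interval from all 5 libraries and the values after leaving out either control. The values of G0s2 stay between -1.21 and -1.14, whereas those of Retnlg, Chil3, Adam8, Msrb1 and Mrgpra2b change sign between the controls.

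The members were also set against neutrophil genes within each library, as ratios of levels, a description added after the values were seen. Against Ly6g, 4 of 8 members (Hdc, Asprv1, Mrgpra2b and Adam8) had a higher ratio in every G-CSF library than in both controls, where 32.0% of all genes did, and 0 of 8 had a lower one, where 0.661% did. Against Cxcr2, the chemokine receptor of mature neutrophils, 6 of 8 had a lower ratio in every G-CSF library, where 36.5% of all genes did, and Asprv1 alone had a higher one, where 0.846% did. The choice of neutrophil gene therefore turned the direction for Hdc and Adam8. Asprv1 per unit of Ly6g was 0.23 and 0.17 in the controls and 2.21, 1.59 and 1.88 with G-CSF. Per unit of Cxcr2, Asprv1 was 0.23 in both controls and 0.35, 0.33 and 0.43 with G-CSF. Retnlg per unit of Cxcr2 was 6.24 and 5.14 in the controls and 1.46, 1.38 and 1.32 with G-CSF, close within each group. Chil3 per unit of Cxcr2 was 26.2 and 23.6 in the controls and 5.65, 4.64 and 5.68 with G-CSF. Cxcr2 itself had a log2 fold change of 1.50 ± 0.72 (SE; adjusted p = 0.442 by limma) and Ly6g one of -0.97 ± 0.63 (SE; adjusted p = 0.525 by limma), so neither denominator was fixed.

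The lists of the surrounding stages differed in their medians. The 35 mature neutrophil genes had a median log2 fold change of 1.44, with 32 positive and 0 called by limma. At an unadjusted p under 0.05, 17 lay above and 0 below, a p that 7.90% of all genes met above and 4.76% below. All these lists were chosen with earlier results of these data known, so their counts are a description only. The 3 negative genes of the 35 included Ly6g (-0.97) and Padi4 (-0.63), and the largest value was that of Ifitm1 (5.38). Which cells of these libraries expressed the 35 genes was not tested, so their median is not a measure of neutrophil content. The 17 genes of early neutrophil granules and precursors had a median of 0.07, with 10 positive, and 5 above and 3 below at that p. The 18 neutrophil-like monocyte genes, of which 14 also stood in one of these lists, had a median of 0.95 with 15 positive, and 8 above and 1 below at that p. Limma called 0 genes of either list. No test was made between these medians and that of the 8 members. The early genes had values on both sides, none past the threshold. Prtn3, the proteinase 3 gene of primary granules, measured 40.9 and 36.8 FPKM in the controls and 142, 201 and 161 FPKM with G-CSF (log2 fold change 2.07 ± 0.31, SE; adjusted p = 0.179 by limma). Ctsg, the cathepsin G gene, had a log2 fold change of 2.30 ± 0.41 (SE; adjusted p = 0.212 by limma), also without overlap. Those of Elane, the neutrophil elastase gene, and Mpo were 1.85 ± 0.49 and 1.96 ± 0.52 (SE; adjusted p = 0.286 and 0.292 by limma). On the other side, Gfi1, a transcription factor gene of granulocyte precursors, had -1.30 ± 0.31 (SE; adjusted p = 0.261 by limma). Camp, the cathelicidin gene of secondary granules, measured 1187 and 402 FPKM in the controls and 86.1, 208 and 66.8 FPKM with G-CSF (log2 fold change -2.69 ± 0.70, SE; adjusted p = 0.286 by limma). Chil3 per unit of Camp was 1.23 and 0.65 in the controls and 4.04, 2.66 and 4.52 with G-CSF, so the pair did not keep a fixed proportion. Camp itself was lower in every G-CSF library, which raises a ratio to it. The share of all genes whose ratio to Camp rose in this way was not counted.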

How the data were processed

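Bulk RNA-seq of bone marrow monocytes was taken from 1 table of 5 libraries that the authors deposited as FPKM. Per the submitters' processing notes the genome was mm10, and the only tool named is Cell Ranger 5.0.1, which is for single cells. The aligner, counter, annotation release, strandedness and sorting are not given in the sources used here. Libraries were grouped by their labels. A gene was tested where 2 or more libraries reached 1 FPKM, on log2(FPKM + 1), by the moderated two-sided test of limma (version 3.58.1, R version 4.3.3) with a mean-variance trend, 3 residual degrees of freedom and Benjamini-Hochberg adjustment over all genes tested. The pseudocount of 1 understates changes of low genes.

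FPKM times the GENCODE M21 exon length gave whole reads (within 0.001) in all 5 libraries for 94.3% of the 30062 rows matched by symbol, and for all 8 members. Sums over these rows are lower bounds of depth. Intervals on reads cover counting error only. Coordinates are 1-based GRCm38. Promoter windows are from RefSeq (GRCm38.p6), in which all 8 members were found. The 8 genes and the 21 other lists were chosen with earlier results of these data known. Text names were the 8, Ly6g, Cxcr2, Csf1r, Ly6c2, Mcpt8, Cpa3, from each list described up to 4 genes with the smallest p and the most abundant, and the 2 nearest profiles of each of the 8. Socs3, Elane, Pnpla2, Flg, Tpsb2, Cma1 and S100a8 fall outside that rule and were named after their values were seen, as were all ratios. The fit was tested on simulated data with noise independent between genes. Such data lack a split between the controls that many genes share, so that run does not cover it. Other steps used Python (3.11.15), numpy (2.4.6), pandas (2.3.3), scipy (1.17.1) and, for plots, matplotlib (3.10.9). The effect of 16 alternatives is given in the closing section. No sample fell into a group by its values, and the skin samples were left out because they have no bulk library in the table.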

Additional observations from a re-analysis of the deposited data

How the results depend on the processing

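Of 128 refits of single members over 16 alternatives, 117 kept the direction and the side of the threshold, 4 were newly called and 7 changed sign. The 117 include refits whose sign could not turn, so they overstate how stable the directions were. Another filter, a restriction to protein-coding genes, or another estimate of the variance (robust, or ignoring the trend) left every log2 fold change unchanged. Only the call could differ there. Blocking on the replicate number repeated the 8 log2 fold changes found without G-CSF replicate 3. The 4 calls all came without control replicate 1, a fit that assumes the lone control left varies like the other group. The sign changes were those of Retnlg (0.81) and Chil3 (0.55) without control replicate 1, of Msrb1 (-0.17), Mrgpra2b (-0.31) and Adam8 (-0.29) without control replicate 2, of Msrb1 without G-CSF replicate 2 (-0.08), and of Msrb1 with quantile normalization (-0.15). With each library left out in turn, the lowest and highest log2 fold changes of these 5 genes were -1.77 and 0.81 (Retnlg), -1.91 and 0.55 (Chil3), -0.17 and 0.27 (Msrb1), -0.31 and 2.42 (Mrgpra2b), and -0.29 and 0.88 (Adam8). The median log2 fold change of the 8 ranged from -0.30 to 0.84 when libraries were left out and was -0.06 with quantile normalization, against 0.17. Members called higher ranged from 0 to 3 and called lower from 0 to 1 when libraries were left out, both upper counts being without control replicate 1, where 17.7% of all genes were called higher and 12.4% lower, and none was called under any other alternative.

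The count of all genes called higher was 1. It was 3 with a pseudocount of 0.1, 0 with a pseudocount of 5, 0 with no filter, 2 with a minimum FPKM of 5, 0 with quantile normalization, 0 with median centring, 2 in limma without trend, 30 with protein-coding genes only and 8 with voom on recovered reads, and ranged from 0 to 2834 when libraries were left out. The count called lower was 0, and 3 with protein-coding genes only, 2 with voom and 0 to 1977 when libraries were left out. Of the genes in the other lists 0 were called, and 1 with a pseudocount of 0.1, 1 with a minimum FPKM of 5, 1 in limma without trend, 7 with protein-coding genes only, 2 with voom and 0 to 70 when libraries were left out. The cause of these shifts was not tested.

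The replicate numbers 1 and 2 are shared by both groups, but the labels do not say that they pair samples, and deviations from the group means correlated at -0.07 and -0.23 across genes. With the replicate number as a block, which leaves G-CSF replicate 3 without a partner, 0 genes were called higher and 0 of the 8 members were called. The depth of control replicate 2 limits Mrgpra2b and Asprv1, which rest on 9 and 14 reads there.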
